A study of Mus musculus with 5 samples.

Results

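The heat shock and chaperonin genes are the 86 protein-coding genes of the mouse, out of 21951 in GENCODE release M21, whose symbols start with Hsp or Dnaj or with Cct and a digit, together with Tcp1, Hsf1 and Hsf2. The rule uses the symbols alone and no measured value. It also takes in Hspbap1, Hspbp1 and Hspg2, and not every member need be a chaperone. The data are 4 peak lists from ChIP-seq, which maps the places on the genome where a protein is found, for Gfi1 and for Lsd1 in each of 2 MG tumors numbered 39 and 41. Gfi1 is a zinc finger repressor and Lsd1 a histone demethylase that Gfi1 can recruit, and the comparison asks where the pair lie in medulloblastoma, a tumor of the cerebellum. Both groups are MG tumors of C57BL/6 origin and differ only in the antibody. The tumors grew from Prominin1+, lineage-negative stem cells that were sorted from cerebella of wild-type mice aged 5 to 7 days, infected with retroviruses for Myc and Gfi1, and transplanted into the cerebella of immunodeficient hosts. All 4 ChIP libraries thus come from tumors that carry viral Gfi1, and none of these libraries is free of it. Libraries were made by Active Motif from frozen tumor tissue, and the sample list also has an input control of pooled MGB tumors, driven by Myc and Gfi1b, which carries no peak list here.

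Chaperones help other proteins to fold, to assemble and to survive stress. Hsp70 proteins bind exposed stretches of unfolded chains in a cycle that J-domain proteins, the Dnaj genes, start and that Hsp110 proteins reset by exchanging the nucleotide, while Hsp90 acts later on kinases, receptors and other clients. Chaperonins are barrels that enclose a client, made of Hspd1 and its lid Hspe1 in mitochondria and of TRiC, built from Tcp1 and the Cct subunits, in the cytosol, where actin and tubulin are its best known clients. Hsf1 is the transcription factor that switches on much of this machinery under stress, by binding heat shock elements, which are inverted repeats of GAA and TTC. Myc-driven cells make much protein, and a need for chaperones is a known feature of many tumors.

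The promoters of 5 members are given here as RefSeq lists them on GRCm38.p6, the build of mm10, over the 250 bases before the transcription start site (TSS). Hspe1, Hsph1 and Hspa1a show heat shock element motifs, and Cct7 and Cct3, the TRiC subunits that ranked highest in the peak lists, show the CCAAT box, the motif of NF-Y. The Hspa1a sequence was chosen after its values were seen. Capitals mark GAANNTTC or TTCNNGAA in Hspe1, Hsph1 and Hspa1a, and CCAAT or its complement ATTGG in Cct7 and Cct3. Hsph1 and Hspa1a also hold CCAAT or ATTGG, left here in lower case, so that the box does not set the Cct genes apart. The positions are chr1:55087898-55088147 (+) for Hspe1, chr5:149636316-149636565 (-) for Hsph1, chr17:34972157-34972406 (-) for Hspa1a, chr6:85451255-85451504 (+) for Cct7 and chr3:88296885-88297134 (+) for Cct3.
Hspe1: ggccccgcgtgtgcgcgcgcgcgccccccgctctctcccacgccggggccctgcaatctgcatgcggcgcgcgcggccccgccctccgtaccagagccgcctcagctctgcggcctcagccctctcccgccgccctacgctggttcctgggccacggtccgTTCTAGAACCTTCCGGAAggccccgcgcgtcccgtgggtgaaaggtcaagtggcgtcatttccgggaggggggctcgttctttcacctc
Hsph1: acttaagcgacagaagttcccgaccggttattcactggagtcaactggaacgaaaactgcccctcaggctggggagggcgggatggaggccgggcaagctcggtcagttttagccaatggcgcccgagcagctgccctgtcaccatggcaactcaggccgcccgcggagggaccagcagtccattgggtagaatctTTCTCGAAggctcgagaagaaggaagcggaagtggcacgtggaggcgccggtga
Hspa1a: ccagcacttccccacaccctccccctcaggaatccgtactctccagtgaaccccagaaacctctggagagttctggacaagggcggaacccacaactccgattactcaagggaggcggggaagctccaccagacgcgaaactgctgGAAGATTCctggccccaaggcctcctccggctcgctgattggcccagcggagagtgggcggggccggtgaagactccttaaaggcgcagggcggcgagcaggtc
Cct7: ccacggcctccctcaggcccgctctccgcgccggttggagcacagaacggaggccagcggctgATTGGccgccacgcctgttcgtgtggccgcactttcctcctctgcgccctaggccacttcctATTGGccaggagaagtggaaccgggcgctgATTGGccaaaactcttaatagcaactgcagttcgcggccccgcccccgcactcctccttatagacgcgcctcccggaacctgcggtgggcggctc
Cct3: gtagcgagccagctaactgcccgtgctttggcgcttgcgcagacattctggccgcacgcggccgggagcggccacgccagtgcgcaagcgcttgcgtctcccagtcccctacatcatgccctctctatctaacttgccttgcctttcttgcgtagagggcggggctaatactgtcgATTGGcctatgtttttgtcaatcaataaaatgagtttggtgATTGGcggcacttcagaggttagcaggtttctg

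The Hspe1 window overlaps the window before the Hspd1 start at chr1:55087932. Hspd1 is read in the other direction, and the same run of repeats lies in that window on the opposite strand. The other Hspd1 window, before the start at chr1:55088243, the annotated 5' end of the gene, holds neither GAANNTTC nor TTCNNGAA. The upstream windows of Hspa1a and Hspa1b, which encode the stress-inducible Hsp70, matched at 247 of 250 bases. Reads from such copies can be placed at either gene, so that the values of Hspa1a and Hspa1b are uncertain to that extent.

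Most promoters of the members carried a peak of both proteins. A gene was counted when any base of a peak came within 1 kb of any of its annotated TSSs. Gfi1 peaks were found at 80 of the 86 genes in tumor 39, against 65% of all protein-coding genes, and at 74 in tumor 41, against 54.2%. Lsd1 peaks were found at 78 genes in tumor 39 and again at 78 in tumor 41, against 58.5% and 61.7%. In all, 74 members had a peak in all 4 lists (86.05%, against 53.1% of all protein-coding genes), 7 had a peak in 1 to 3 lists (8.14%, against 13.2%) and 5 had none (5.81%, against 33.7%). The lists hold 25078 to 36836 peaks, the shortest being Gfi1 in tumor 41, which fixes the count of 74 because the other 3 lists share 77 members. With 2 libraries against 2, an exact permutation test cannot give a two-sided p below 0.333, and no test between the proteins or tumors was made.

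Cct8l1, Dnajb7, Dnajb8, Dnajc5b and Dnajc5g had no promoter peak in any list. The small heat shock genes Hspb3 and Hspb7 had a peak only in Gfi1 of tumor 39, at score percentiles of 27.4 and 21.4, and Dnajb13 had a peak only in Lsd1 of tumor 39, at 2.92. The score percentile ranks a peak by its deposited score within its own list, from 0 for the lowest to 100 for the highest, and the highest promoter peak of a gene is used. That peak can lie at different sites in different lists, as at Dnaja3, Dnajb4, Dnajc16 and Dnajc22. Means and differences over lists then compare different sites. Hspa12b, a distant Hsp70 relative known from endothelium, had weak peaks in Gfi1 of tumor 39 (32.6) and Lsd1 of tumor 41 (41.9). Hspb2, Dnajb3 and Dnajc21 had peaks in every list except Gfi1 of tumor 41, at percentiles from 31.6 to 68.6, so that none of the 7 partly covered genes reached the upper 20% of any list. Hspb2 lies within 1 kb of the TSS of Cryab, and its peaks cannot be told apart from peaks of that gene.

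**Figure D1:**
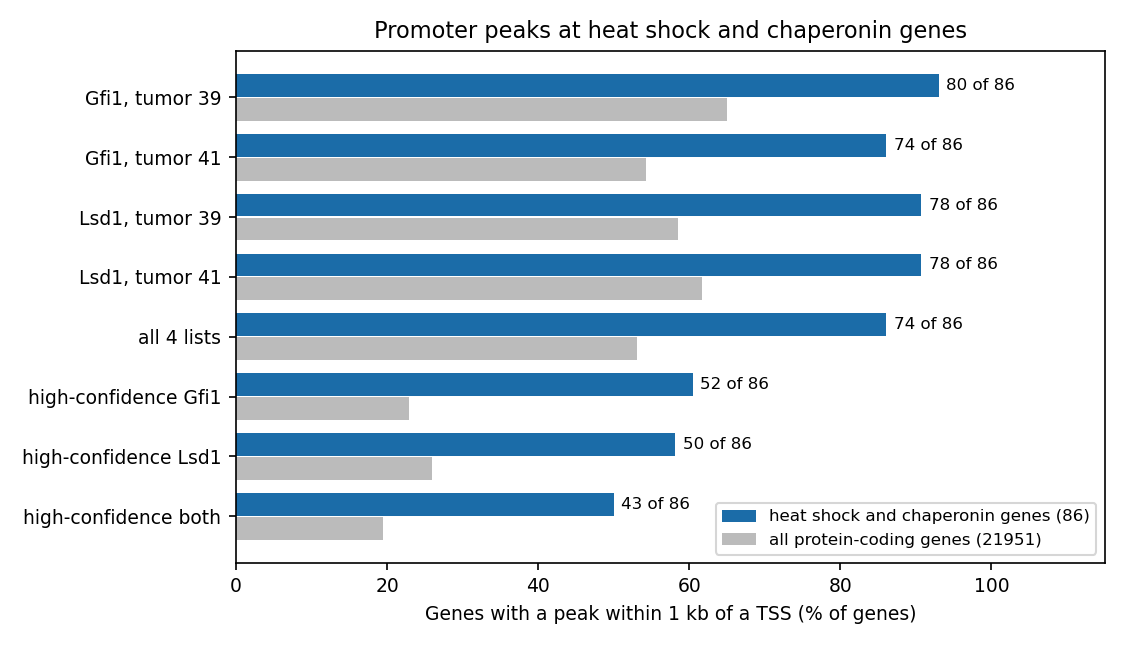
Share of genes with a promoter peak, in percent, for the 86 heat shock and chaperonin genes (blue, with the count beside each bar) and for all 21951 protein-coding genes (grey), in each peak list, in all 4 lists and in the high-confidence sets of Gfi1, Lsd1 and both. The blue bar is longer than the grey bar in every row, from 80 of 86 genes against 65% for Gfi1 in tumor 39 to 43 of 86 against 19.5% for both high-confidence sets.

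The plot of promoter shares also gives the counts for strong peaks. High-confidence peaks are those in the upper 20% of the score in replicate 1 (tumor 39) with at least 50% of their length covered by upper 20% peaks of replicate 2 (tumor 41). A high-confidence Gfi1 peak lay at 52 members (60.5%), against 22.9% of all genes, and a high-confidence Lsd1 peak at 50 (58.1%), against 25.9%. Both lay at 43 members (50%), against 19.5%. Of the rest, 9 members had only the high-confidence Gfi1 peak (background 3.46%), which were Cct4, Cct8, Dnajb5, Dnajb6, Dnajc4, Dnajc19, Hsp90ab1, Hspa4 and Hspa8, and 7 had only the Lsd1 peak (background 6.43%), which were Cct2, Dnajb4, Dnajc1, Dnajc3, Dnajc13, Hspb9 and Hspbp1. A member missing from a high-confidence set may still hold strong peaks. Peaks in the upper 20% of all 4 lists were found at 45 members (52.3%, against 19.9%). Hspa8 was among them, but upper 20% peaks of tumor 41 covered only 43.2% of its wide Lsd1 peak of tumor 39.

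Gfi1 and Lsd1 peaks lay on the same promoters rather than on separate ones. In tumor 39, 77 of the 80 members with a Gfi1 promoter peak had it overlapped by an Lsd1 promoter peak by at least 1 bp (96.2%, exact 95% interval 89.4% to 99.2%), which is 89.5% of the 86 members against 57.7% of all protein-coding genes. The 3 without were Hspa12b, Hspb3 and Hspb7. In tumor 41, 74 of 74 members did (100%, 95.1% to 100%), which is 86.05% of all members against 53.8%. Read from the Lsd1 side, 77 of 78 members overlapped Gfi1 in tumor 39 (98.7%, against 98.6% of all genes with an Lsd1 peak) and 74 of 78 in tumor 41 (94.9%, against 87.1%). Among all genes with a Gfi1 peak the shares were 88.8% in tumor 39 and 99.1% in tumor 41, so that the members' share was near that of all genes from the Gfi1 side in tumor 41 and from the Lsd1 side in tumor 39. The intervals cover counting error over genes only.

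The members' promoter peaks also ranked higher in the lists. For Gfi1 the median percentile over members with a peak was 90.4 in tumor 39 and 88.2 in the other tumor (89.3 ± 1.58, mean and SD, n = 2 tumors), against 82.5 and 77.4 over all protein-coding genes with a peak (SD 3.55). For Lsd1 the medians were 86.2 and 89.8 (88.0 ± 2.54), against 79.0 and 81.0 (SD 1.38). The members' median was higher in each of the 4 lists, by more than the SD between the tumors for either protein. The peaks were wider too, and their median widths were 2411 and 2879.5 bp in the Gfi1 lists and 3263.5 and 2930 bp in the Lsd1 lists, against 2085.5, 2185, 2516 and 2380 bp over all genes with a peak. At 30 of the 86 members the TSS of another protein-coding gene lay within 1 kb, so that a peak there cannot be given to the member alone. All 4 percentiles were 90 or above in 21 members (24.4%, against 8.2% of all protein-coding genes). The highest peak covered a TSS at 72 to 78 members per list, and 11 to 17 members per list had more than 1 promoter peak.

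**Figure D2:**
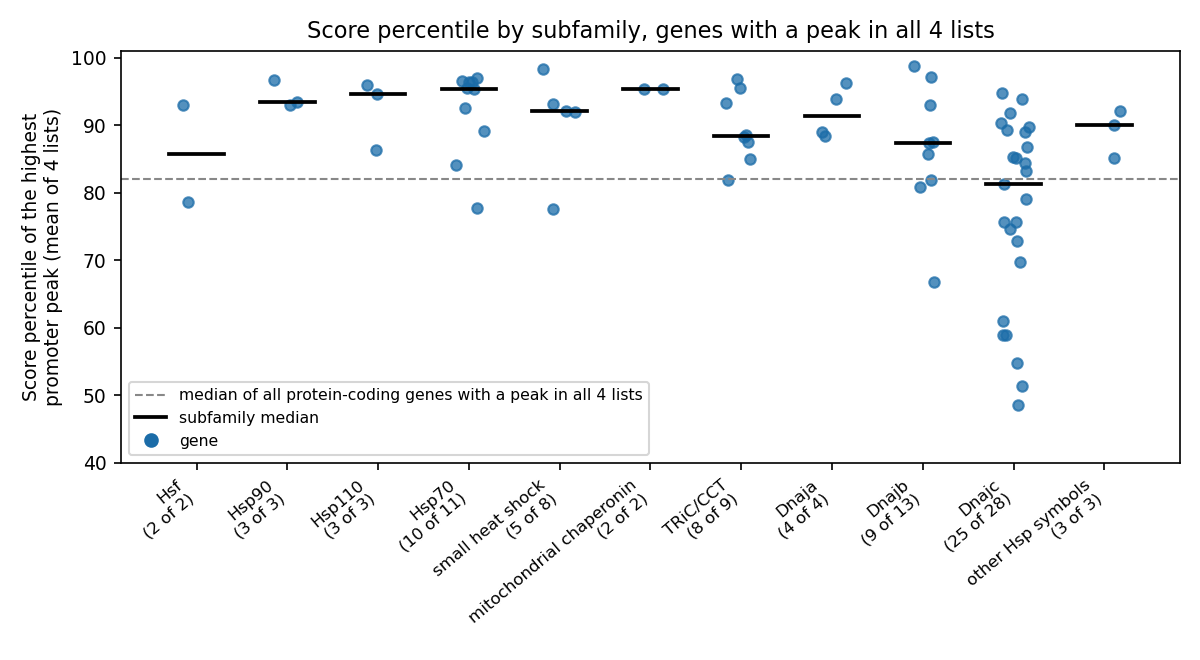
Mean over the 4 lists of the score percentile of each member's highest promoter peak, by subfamily, for the 74 members with a peak in all 4 lists. Each point is a gene, black lines are subfamily medians, the numbers under each name count the genes plotted of all in the subfamily, and the dashed line is the median of all protein-coding genes with a peak in all 4 lists (82.0); the Dnajc genes spread from 48.6 to 94.8 while 8 of the 10 plotted Hsp70 genes lie above 89.

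The subfamilies differed in rank, as the plot of percentiles by subfamily shows. Among members with a peak in all 4 lists, the median of the mean percentile was 95.4 for Hsp70 (10 genes), 95.4 for the mitochondrial chaperonin (2 genes on the same peaks), 94.6 for Hsp110 (3), 93.4 for Hsp90 (3), 92.1 for small heat shock proteins (5) and 91.4 for Dnaja (4). It was 88.4 for TRiC (8), 87.4 for Dnajb (9), 85.7 for the Hsf genes (2) and 81.3 for Dnajc (25), beside 88.9 over all members and 82.0 over all protein-coding genes. The genes that encode the folding machines thus ranked above the large Dnajc class, whose members share little beyond the J domain and whose median lay at that of all genes. Both high-confidence peaks were held by 8 of 11 Hsp70 genes, 4 of 4 Dnaja, 5 of 9 TRiC, 2 of 3 Hsp90, 2 of 3 Hsp110, 4 of 8 small heat shock, 4 of 13 Dnajb and 9 of 28 Dnajc genes, against the background of 19.5%.

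Hsf1, the master regulator of the heat shock response, carried strong peaks of both proteins, and its relative Hsf2 weaker ones. Hsf1 stood at the percentiles 97.2 and 89.9 in the Gfi1 lists and 91.2 and 93.4 in the Lsd1 lists, tumor 39 before tumor 41, and this order is kept throughout. Those of Hsf2 were 81.6, 67.3, 74.3 and 91.0. Hsf1 was above Hsf2 in every list. The TSS of Bop1, which encodes a ribosome biogenesis factor, lies within 1 kb of that of Hsf1, and the peaks cannot be given to either gene alone.

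Hsp90aa1 and Hsp90ab1 held the widest peaks of any members. The percentiles of Hsp90aa1, the stress-inducible cytosolic form, were 98.6, 93.8, 87.5 and 93.7, those of Hsp90ab1, the constitutive form, 98.6, 99.8, 77.7 and 95.8, and those of Hsp90b1, the form of the endoplasmic reticulum, 95.5, 98.1, 97.1 and 96.1. Hsp90b1 was even across the lists, while Hsp90ab1 was low in Lsd1 of tumor 39 alone. The value of 98.6 in Gfi1 of tumor 39 is that of 805 peaks tied at a score of 3100, which 11 members reached, so that no order among them can be given.

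The Hsp110 genes, which act as nucleotide exchange factors, were strong in Hsph1 and less even in Hspa4. Hsph1 stood at 95.6, 95.6, 97.1 and 95.6, with a range of only 1.54 points, the smallest of any member. Hspa4 stood at 95.03, 81.8, 79.4 and 89.1, and missed the upper 20% in Lsd1 of tumor 39.

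All Hsp70 genes except Hspa12a and Hspa12b were in the upper 20% of every list. The inducible Hspa1a stood at 98.6, 95.4, 95.5 and 95.6 and Hspa1b at 98.6, 97.6, 93.1 and 92.5. Hspa8, the constitutive cytosolic Hsp70, stood at 98.6, 95.5, 95.03 and 97.2, and Hspa9, the mitochondrial form, at 98.6, 93.9, 92.5 and 96.3. Hspa5, or BiP, the Hsp70 of the endoplasmic reticulum, was lower and even at 89.5, 90.2, 89.2 and 87.9. Hspa8 and Hspa9 were thus close to the inducible Hspa1a and Hspa1b, whereas Hspa5 was below each of them in every list. Hspa1l, whose TSS lies 547 bp from that of Hspa1a, shared its highest peak in all 4 lists, and the values of these genes are a single measurement.

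Among the small heat shock genes, which hold unfolded proteins in a soluble state, Hspb1 stood at 95.4, 90.3, 91.7 and 91.1. Its peaks of 2783 to 3075 bp covered the whole gene of 1645 bp in all 4 lists. Hspb6 ranked higher, at 97.4, 99.3, 98.9 and 97.7, and its peaks also covered the TSS of Proser3. Hspb9 was uneven at 87.0, 54.8, 84.4 and 84.0, low in Gfi1 of tumor 41 alone.

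Hspd1 and Hspe1 are transcribed in opposite directions, with annotated TSSs 71 bp apart at the closest, and the same peak was the highest for both genes in every list. It stood at 98.6, 97.3, 95.6 and 90.03 and was 2664, 3728, 6763 and 3665 bp wide. The Lsd1 peak of tumor 39, at chr1:55085396-55092158, covered all of Hspe1, from which a lid of the chaperonin is made, and 2848 bp of Hspd1. The Hspe1 sequence printed above, with its repeats, lies within the peak in all 4 lists.

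All 8 TRiC genes with a promoter peak had it in all 4 lists. Cct7 (98.6, 96.0, 96.4 and 96.2), Cct3 (91.7, 99.0, 97.3 and 93.9) and Cct5 (95.3, 92.0, 92.8 and 92.9) were above 90 in every list. Cct6b (91.0, 87.4, 85.8 and 85.8) and Tcp1 (93.3, 89.8, 82.7 and 88.4) followed, and all 5 were high-confidence for both proteins. Cct4 (92.7, 87.5, 77.7 and 82.0) and Cct8 (88.1, 87.8, 70.5 and 81.2) were higher for Gfi1 than for Lsd1 in both tumors, and Cct2 (93.3, 79.4, 89.4 and 90.9) was low in Gfi1 of tumor 41 alone. The mean percentiles of these 8 genes, which were grouped by symbol, ranged from 81.9 to 96.8. Cct6a, the other Cct6 gene, has the type processed transcript in release M21 and so fell outside the rule. It was looked at afterwards and had peaks in all 4 lists, a mean percentile of 87.4 and high-confidence peaks of both proteins. Its highest Gfi1 peak of tumor 41 lay at chr5:129844871-129847888, whereas those of the other lists lay within chr5:129785332-129788306. The mean of Cct6a thus joins different sites.

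**Figure D3:**
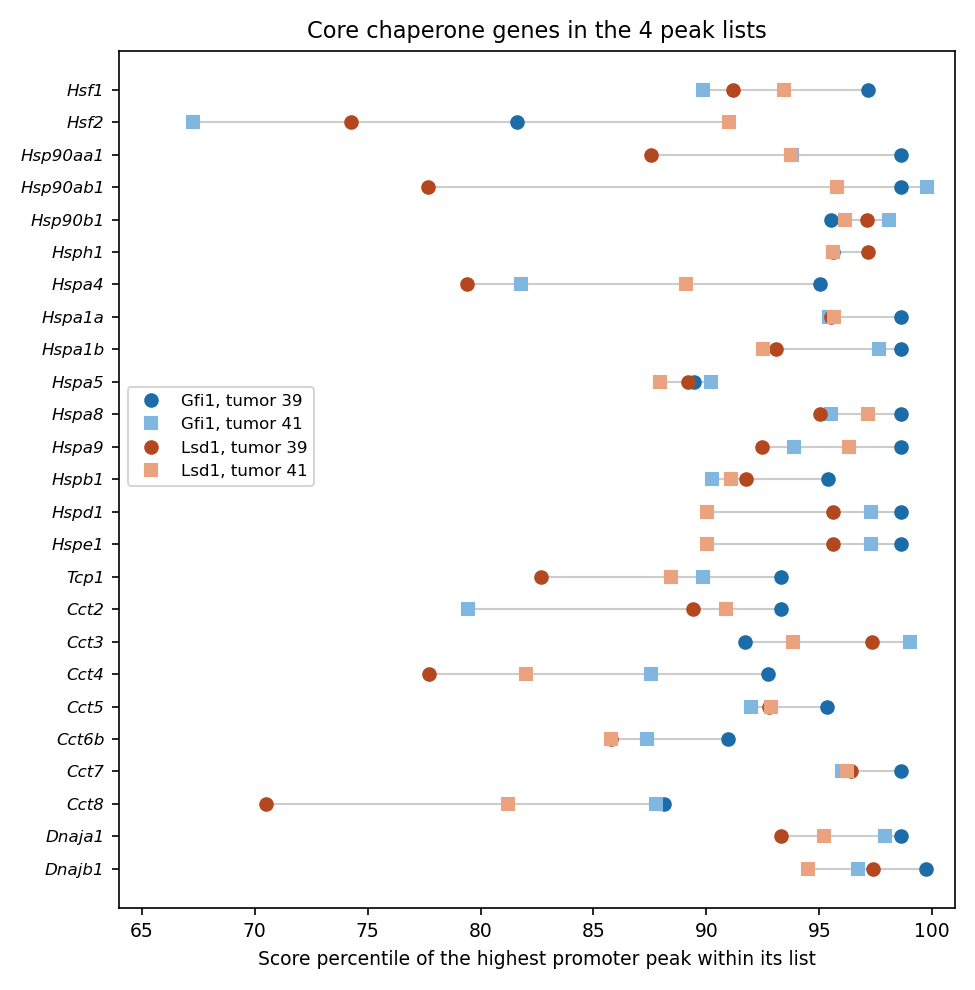
Score percentile of the highest promoter peak within its list for 25 genes named for their roles, with Gfi1 in blue and Lsd1 in orange, circles for tumor 39 and squares for tumor 41. Grey lines join the lowest and the highest value of a gene; Hsph1 and Hspa5 are narrow, while Hsf2 (67.3 to 91.0), Hsp90ab1 (77.7 to 99.8) and Cct8 (70.5 to 88.1) are wide.

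The J-domain genes held both ends of the ranking. Dnajb12, a membrane J protein of the endoplasmic reticulum, was the highest member of all with 97.4, 99.1, 99.3 and 99.2, a mean of 98.8. Dnajb1, the main cytosolic partner of inducible Hsp70, stood at 99.7, 96.7, 97.4 and 94.5, and Dnaja1, another such partner, at 98.6, 97.9, 93.3 and 95.2. The 5 highest means were those of Dnajb12, Hspb6 (98.3), Dnajb1 (97.1), Hspa2 (97.0), the Hsp70 known from testis, and Cct7 (96.8). The 5 lowest among members with a peak in all 4 lists were Dnajc genes, namely Dnajc8 (48.6), Dnajc28 (51.3), Dnajc22 (54.8), Dnajc18 (58.9) and Dnajc6 (58.97). Dnajc8 is a splicing-related J protein and Dnajc6, or auxilin, uncoats clathrin vesicles. Their values were spread widely, with 69.5, 34.1, 28.9 and 61.9 for Dnajc8 and 79.4, 31.7, 40.96 and 67.1 for Dnajc22, so that the order among these 5 is not resolved. At Dnajc22 the highest Gfi1 peaks did not overlap the highest Lsd1 peaks, so that its values come from different sites.

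The 4 percentiles of a member differed by a median of 8.71 points, and by more than 30 in only 6 members, which were Hspb9, Dnajc6, Dnajc8, Dnajc18, Dnajc22 and Dnajc25. In 5 of these the lowest value was that of Gfi1 in tumor 41. The highest value of a member was in Gfi1 of tumor 39 for 48 of the 74 members. These counts were not made over all genes, so that they cannot be read as particular to the members. Across the 74 members, Spearman's rho of the percentiles was 0.872 between the Lsd1 lists and 0.743 between the Gfi1 lists. Between the proteins it was 0.648 in tumor 39 and 0.723 in tumor 41, and 0.700 and 0.763 with the tumors crossed. Over all genes with a peak in all 4 lists, rho was 0.882 between the Lsd1 lists and 0.774 between the Gfi1 lists. Between the proteins these genes gave 0.761 in tumor 39 and 0.780 in tumor 41, and 0.837 and 0.801 with the tumors crossed. Genes are not independent replicates, and the lists share the promoter sequence. Lists of the same tumor were thus not more alike than lists of different tumors.

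**Figure D4:**
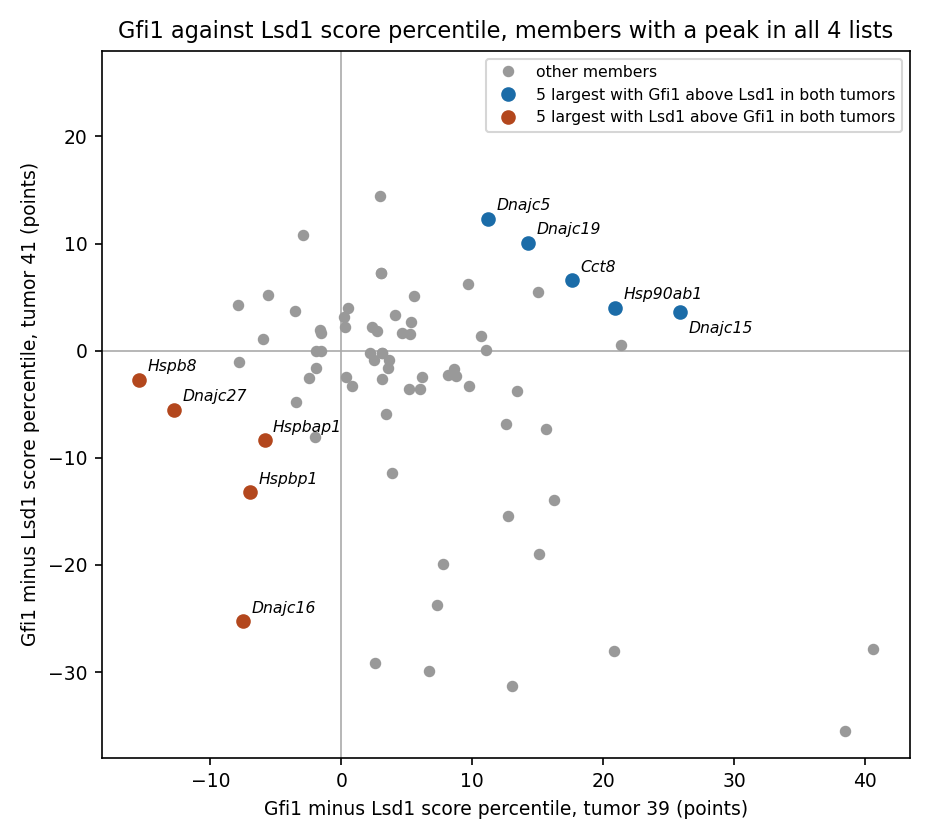
Gfi1 minus Lsd1 score percentile, in points, in tumor 39 (x axis) and tumor 41 (y axis) for the 74 members with a peak in all 4 lists, with the 5 members of the largest mean difference of the same sign in both tumors named in blue (Gfi1 above Lsd1) and in orange (Lsd1 above Gfi1). Most points lie to the right of 0 in tumor 39 (median 3.62) while they are centred near 0 in tumor 41 (median -0.957), and 39 members change sign between the tumors.

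At 35 of the 74 members the same protein ranked higher in both tumors. The Gfi1 percentile was above that of Lsd1 in both tumors at 23 members (26.7% of 86, background 10.7%), the Lsd1 percentile was above in both at 12 (14.0%, background 10.5%), and the order differed between the tumors at 39 (45.3%, background 31.9%). These backgrounds are over all protein-coding genes, only 53.1% of which have all 4 values. Among genes with all 4 values the shares were 31.1% of members against 20.1% of all genes for Gfi1 above, 16.2% against 19.8% for Lsd1 above and 52.7% against 60% for an order that differed, so that the direction of the latter pair of comparisons turns with the denominator. The largest mean differences toward Gfi1 were 14.8 points for Dnajc15, a J protein of the mitochondrial import motor, 12.5 for Hsp90ab1, 12.2 for Dnajc19, another import J protein, 12.1 for Cct8 and 11.8 for Dnajc5, the cysteine string protein of synaptic vesicles. Dnajc5 was the evenest, with 11.2 points in tumor 39 and 12.3 in tumor 41, whereas Dnajc15 had 25.9 and 3.64. The largest toward Lsd1 were -16.4 for Dnajc16, -10.1 for Hspbp1, an Hsp70 cochaperone, -9.14 for Dnajc27, -9.07 for Hspb8 and -7.12 for Hspbap1. Dnajc16 stood at 90.5 and 71.6 for Gfi1 and at 98.0 and 96.9 for Lsd1, and its Lsd1 peaks also covered the TSS of Casp9. Its Gfi1 peak of tumor 39, at chr4:141791853-141794704, covered no TSS of Dnajc16. That peak did not overlap the Gfi1 peak of tumor 41, at chr4:141789695-141791570, so that the Gfi1 values come from different sites. The plot of the Gfi1 minus Lsd1 percentile sets both tumors against each other.

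Wide peaks, set at 5 kb or more after the widths had been seen, were found at 13 members in at least 1 list (15.1%, against 8.65% of all protein-coding genes). All 13 were wide in Lsd1 of tumor 39 (15.1%, background 6.66%), 6 in Lsd1 of tumor 41 (6.98%, background 6.23%), 5 in Gfi1 of tumor 41 (5.81%, background 2.99%) and 3 in Gfi1 of tumor 39 (3.49%, background 4.33%). Without Lsd1 of tumor 39 the count was 9. By the study's own report that library had the most mapped reads of the ChIP libraries, and the part of depth in the widths was not tested. Apart from that list the members' shares were therefore near the background or rest on 5 genes. The genes were Hsp90aa1, Hsp90ab1, Hspa5, Hspa8, Hspb6, Hspb8, Hspd1, Hspe1, Dnaja3, Dnajb1, Dnajb5, Dnajb12 and Dnajc16.

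Hsp90ab1, at chr17:45567775-45573271, was covered from end to end. Its highest peaks were 4521, 12485, 13425 and 13162 bp wide, and promoter peaks covered 93.1% of its 5497 bp in Gfi1 of tumor 39 and 100% in the other 3 lists. Only Hsp90ab1 and Hspb1 among the members were covered by 90% or more in all 4 lists (2.33%, background 1.79%), a share near the background. The 3 widest peaks of Hsp90ab1 run 4450 to 5011 bp past the 3' end of the gene over the TSS of Slc35b2, and its Lsd1 peak of tumor 39 was in the 99.6 percentile by width but only the 77.7 by score. Width and rank by score were thus not the same quantity, although across the 74 members their Spearman's rho was 0.618 to 0.736 per list.

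Hsp90aa1 had the widest single peak of any member, 14092 bp in Lsd1 of tumor 39, and one of 10536 bp in Lsd1 of tumor 41, against 5143 and 4321 bp for Gfi1. The Gfi1 peak of tumor 39 lay wholly within the gene over an internal TSS, whereas the Lsd1 peak of tumor 39 reached 5588 bp upstream of the gene. Hspa8 showed the same order, with 3566 and 4959 bp for Gfi1 and 10374 and 5118 bp for Lsd1. Dnajb12 was wide in 3 lists (4489, 7005, 6385 and 7513 bp), with no other coding gene under its peaks of 5 kb or more. The Lsd1 peak was wider than the Gfi1 peak at 58 of 74 members in tumor 39 (78.4%, against 73% of all genes with a peak in all 4 lists), at 41 in tumor 41 (55.4%, against 69.3%) and in both at 29 (39.2%, against 49.5%), so that wider Lsd1 peaks were no feature of the members.

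**Figure D5:**
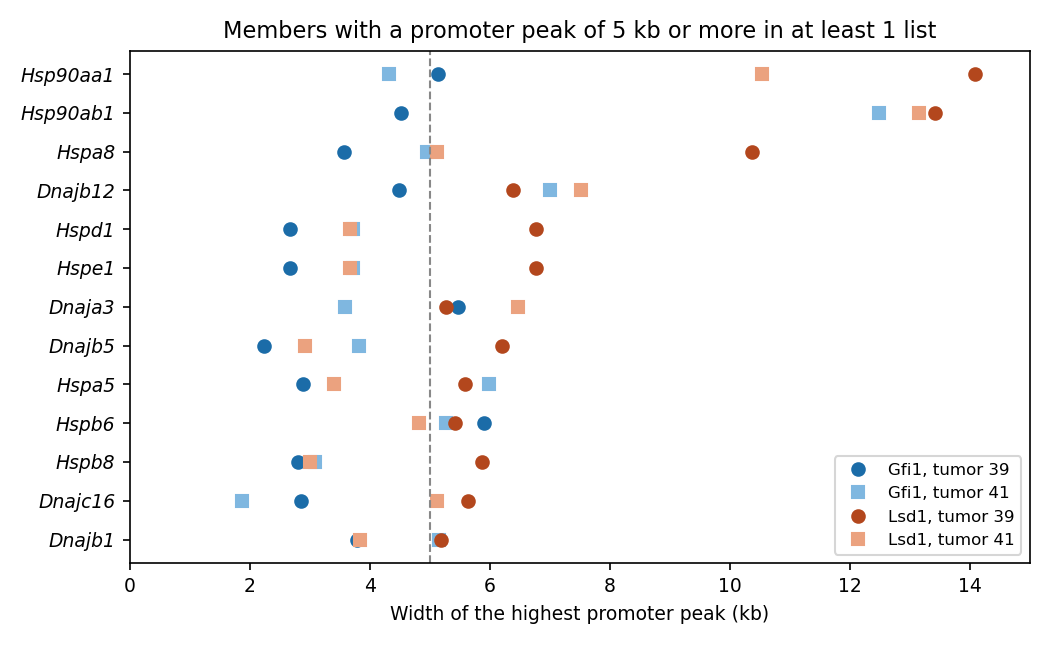
Width in kb of the highest promoter peak in each list for the 13 members with a peak of 5 kb or more (dashed line) in at least 1 list, with Gfi1 in blue, Lsd1 in orange, circles for tumor 39 and squares for tumor 41. Hsp90aa1 reaches 14092 bp in Lsd1 and at most 5143 bp in Gfi1, Hsp90ab1 is at 12485 bp or more in every list except Gfi1 of tumor 39, and no other member exceeds the 10374 bp of Hspa8.

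The members' promoters are rich in CpG, and CpG content moves with the presence of a peak. The highest CpG count in the 1 kb centred on a TSS had a median of 73 over members and 50 over all protein-coding genes. It was 79 over the 74 members with a peak in all 4 lists, 35 over the 7 with a peak in some and 20 over the 5 with none, beside 70, 51 and 10 over all genes of those kinds. Within genes of 60 or more CpGs, 58 of 60 members had a peak in all 4 lists (96.7%), against 85.2% of all such genes, and 38 had both high-confidence peaks (63.3%), against 37.6%. With 30 to 59 CpGs the counts were 16 of 18 (88.9%, against 68.8%) and 5 of 18 (27.8%, against 16.6%), and with fewer than 30 CpGs 0 of 8 members had peaks in all 4 lists, against 7.23%. The strata were set after the values were seen. The number of annotated TSSs also moved with the result, with a median of 4 per member and 3 per protein-coding gene. With only the annotated 5' end of each gene, 71 members (82.6%) and 49.7% of all genes had a peak in all 4 lists. Whether the members are more active in transcription than other genes, and the part of that in these shares, was not tested.

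Across the 74 members the rank by score followed CpG content in Gfi1 of tumor 39, with a Spearman's rho of 0.515, and hardly in the other lists, with 0.175 for Gfi1 of tumor 41 and 0.0932 and 0.149 for Lsd1. The same values over all genes with a peak in all 4 lists were 0.483, 0.162, 0.250 and 0.411. Gfi1 of tumor 39 thus stood apart from Gfi1 of tumor 41 in this respect among members and among all genes.

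Heat shock element motifs were searched in the members' promoters and in all promoters. RefSeq gave 89 upstream windows of 250 bases for 70 of the 86 members and 20150 for all genes. GAANNTTC was in 14 member windows (15.7%, against 6.14% of all windows), of Cct2, Cct8l1, Dnaja1, Dnaja4, Dnajb6, Dnajc27, Hspa1a, Hspa1b, Hspb1, Hspb3, Hspb6, Hspd1 and Hspe1. TTCNNGAA was in 9 (10.1%, against 6.44%), of Cct5, Dnajb4, Dnajb6, Dnajc10, Hspd1, Hspe1 and Hsph1. The longer form, in which a further TTC or GAA follows either motif after 2 free bases and which therefore overlaps both, was in 4 windows, of Dnajb6, Hspd1 and Hspe1 (4.49%, against 0.382%). These counts hold single sites more than once, since Hspd1 and Hspe1 share a run of repeats and Dnajb6 and Hsph1 have several windows. With overlapping windows taken as 1 region, a choice made after the values were seen, GAANNTTC was in 12 of 82 member regions (14.6%, against 6.39% of all regions), TTCNNGAA in 6 (7.32%, against 6.7%, a share near the background) and the longer form in 2 (2.44%, against 0.39%). The short motifs read the same on both strands, and the long one was searched in both forms. AATC, the core of the Gfi1 site, was in 67.4% of member windows and 66.9% of all, the E-box CACGTG, bound by Myc, in 7.87% and 6.78%, and CCAAT in 36.0% and 35.0%, on either strand. A match says only that the letters are present.

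Among the members with a window and a peak in all 4 lists, the median of the mean percentile was 95.4 for the 11 with GAANNTTC (80.9 to 98.3) and 87.5 for the 49 without (48.6 to 98.8). For TTCNNGAA, the other heat shock motif, it was 93.2 for 7 with and 88.6 for 53 without, a smaller gap. It was 93.8 for the 24 with CCAAT and 86.8 for the 36 without. For AATC it was 90.05 for 48 with and 85.1 for 12 without, and for CACGTG 89.2 for 7 with and 88.9 for 53 without. The ranges overlapped throughout. Hspd1 and Hspe1, on the same highest peaks, are a single measurement in the group of 11 and in that of 7 with TTCNNGAA. Hspa1a and Hspa1b, in the group of 11, have separate peaks, but reads can be placed at either gene. Their values may therefore not be independent.

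The co-chaperones and other chaperones outside the symbol rule had shares close to those of the members. Of 43 such genes, which include the partners of Hsp90, the Bag genes, prefoldin and the mitochondrial proteases, 41 had a peak in all 4 lists (95.3%, against 53.1% of all genes). Hsf4 had a peak in 3 lists and Hsf5 in none. High-confidence peaks of Gfi1 lay at 27 of them (62.8%, against 22.9%), of Lsd1 at 28 (65.1%, against 25.9%) and of both at 24 (55.8%, against 19.5%). Their median mean percentile of 89.2 was near the 88.9 of the members.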

How the data were processed

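ChIP for Gfi1 and for Lsd1 was made in MG tumors 39 and 41, numbers that come with the deposited peak lists, and libraries of the same tumor are paired. Per the labels, reads were checked with FastQC, aligned to mm10 with BWA 0.6.2 and processed with Picard. Per the study's methods, duplicates were removed and MACS called peaks at default settings in each library against input. In the deposited lists each peak has its coordinates and the authors' score, which is 50 or more in every list and whose definition is not given in the sources used here. Scores have no common scale, so that only mid-rank percentiles within a list were compared. The study ranked by enrichment, for which the score was used. The lists carry no read counts, and the depth and precision of a peak are unknown.

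TSSs of all transcripts were taken from GENCODE M21 on GRCm38, the build of mm10, and the window was 1000 bp. High confidence follows the steps stated in the study's methods, with the upper 20% of each replicate and an overlap of 50%. For each protein the study reports more peaks than 20% of the replicate 1 list holds. The sets used here are therefore smaller than the study's own, and its calls for the members may differ. No test between groups was made. Presence was checked on simulated peaks and found right for 2000 of 2000 genes. Python 3.11.15, numpy 2.4.6, scipy 1.17.1, pandas 2.3.3, pysam 0.24.0 and matplotlib 3.10.9 were used.

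The gene group and the lists were chosen with earlier results of these data known, although the rule itself uses only symbols. Genes were named by role, as the 5 highest and 5 lowest mean percentiles, as the 5 largest differences toward Gfi1 and toward Lsd1 of the same sign in both tumors, and where peaks were missing. Of the genes named only for a count, a wide peak or a wide range, the choice came after the values were seen. Alternatives varied the TSS window and set, the score cutoff, the replicate and factor overlap, the tumor pairing and the libraries.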

Additional observations from a re-analysis of the deposited data

Results flagged for a closer look

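The median of the Gfi1 minus Lsd1 score percentile over the 74 members with a peak in all 4 lists was 3.62 points in tumor 39 and -0.957 points in tumor 41, and drew attention because the sign is opposite in the 2 tumors. The difference between the tumors was not tested, since each tumor gives a single pair of libraries. Over all protein-coding genes with a peak in all 4 lists the medians were 4.76 and -4.76 points, so that the opposite sign is not particular to the members. Gfi1 of tumor 39 has the longest list and Gfi1 of tumor 41 the shortest, with 36836 and 25078 peaks, and the part of list length in this difference was not tested.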

How the results depend on the processing

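Of 125 recomputed values, 9 moved and 1 turned its sign, and the others kept their direction and stayed within 1.5 times the count, within the SD between the tumors or, for a share, within its 95% interval. With the score limited to the upper 20%, members with a peak in all 4 lists fell to 45 and members with none rose to 23, and the share of members with a Gfi1 peak that had it overlapped by Lsd1 was 85.5% in tumor 39 and 94.3% in tumor 41. With the upper 10%, high-confidence members were 26 for Gfi1 and 30 for Lsd1. The median Gfi1 percentile of tumor 41 was 84.1 when a gene's promoter peaks were averaged. Members with a wide peak were 22 at 4 kb and 8 at 6 kb, widths chosen after seeing the data. Leaving out each library in turn gave 74 to 77 members with a peak in all lists, 5 to 7 with none and 9 to 13 with a wide peak. Dropping a list can only raise the counts with a peak in all lists or in none, and can only lower that with a wide peak. With a replicate left out, no replicate overlap can be asked for. Members with an upper 20% peak in the remaining replicate were then 53 to 62 for Gfi1 and 53 to 60 for Lsd1. The pairing by tumor (the replicate block) was checked by pairing Gfi1 with Lsd1 of the other tumor. The overlap shares were then 97.5% and 100%, and the counts of members with Gfi1 or Lsd1 above in both pairs 31 and 13. The median percentile difference was then 2.98 points for Gfi1 of tumor 39 and 0.290 for Gfi1 of tumor 41, which reversed the sign of the latter, and the cause was not tested. The absence of read counts limits how firmly weak peaks can be called missing.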
